A study of Mus musculus with 8 samples.

Results

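The genes examined were 48 type I interferon-stimulated antiviral genes of the mouse, taken by symbol from a fixed list and kept where their mean over the 8 libraries was at least 0 on the log2 CPM scale (CPM, counts scaled to 1e+06 per library). All 48 of 48 were in the table, out of 13744 genes in all, and all 48 met that limit. The 2 members nearest to the limit were Iigp1, with a mean of 0.17 log2 CPM, and Ifi44, with 0.23, and the next was Ifit1bl1 with 2.98. Without Nr4a1 KO replicate 2, its highest library, Iigp1 would lie below the limit. Ifi44 would do so without the libraries labelled Bcl6 cKO. Calls of these 2 genes as higher there thus add no separate support. RNA came from Ly6C-high classical monocytes of bone marrow, the circulating inflammatory monocytes from which Ly6C-low nonclassical monocytes arise, and the series concerns the factors that promote nonclassical monocytes. The genotypes were an Irf2 knockout (Irf2 KO), a conditional Bcl6 knockout (Bcl6 cKO), an Nr4a1 knockout (Nr4a1 KO) and wild type, each with 2 libraries. The sources used here do not state which exons were removed, which Cre line acted on the conditional allele, the strain, age and sex of the mice, or whether the 2 libraries of a genotype are from different mice. The p-values therefore measure only how far these samples spread, and that spread may be technical.

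Type I interferons bind the receptor Ifnar1 with Ifnar2, the kinases Jak1 and Tyk2 then phosphorylate Stat2, and Stat2 joins Irf9 in a complex that binds interferon-stimulated response elements in the promoters of target genes. The products block viral entry, translation and replication, sense foreign nucleic acid, or tag proteins with the ubiquitin-like Isg15. Unstimulated monocytes also keep a basal level of these transcripts. Irf2 binds the same elements and is known in the mouse as a factor that can oppose activation by Irf1 and by the Irf9 complex. Bcl6 is a transcriptional repressor, and Nr4a1 is a nuclear receptor that nonclassical monocytes need.

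Each library held 46617756 to 62633123 reads in genes, so that 1 CPM stood for 47.9 to 61.8 reads, and 0.569% to 0.778% of the reads were mitochondrial. Among the targeted genes, Irf2 stood at 6.50 and 6.69 log2 CPM in Irf2 KO, against 7.18 and 7.14 in wild type, 1.48-fold lower (limma adjusted p = 0.0222). Nr4a1 stood at 2.32 and 2.98 in Nr4a1 KO, against 4.64 and 5.29 in wild type (4.97-fold lower, limma adjusted p = 0.000622). It was as low in Irf2 KO, at 2.59 and 2.52 (5.30-fold below wild type, limma adjusted p = 0.00163), so a low value does not set the Nr4a1 KO libraries apart. Bcl6 read 6.53 and 6.40 log2 CPM in the libraries labelled Bcl6 cKO and was thus higher there than in wild type, with 4.66 and 4.64, while Irf2 KO held 3.37 and 3.79 (2.10-fold below wild type, limma adjusted p = 0.00382). Counts cover whole genes, including any transcript left after exons were removed, so the values of the 3 targeted genes are no check of the labels. The classical monocyte markers Ly6c2 and Ccr2, 2 of 8 listed, were present in every library. Of the 8, 4 were called lower in Irf2 KO (50%, against 12.3% of all genes tested). Ly6c2 stood at 12.29 and 12.61 log2 CPM in Irf2 KO, 12.04 and 12.29 in the libraries labelled Bcl6 cKO, 11.49 and 12.33 in Nr4a1 KO, and 11.87 and 12.22 in wild type. Ccr2 stood at 9.83 and 10.12 in Irf2 KO, 10.08 and 9.93 in the libraries labelled Bcl6 cKO, 10.66 and 10.75 in Nr4a1 KO, and 10.34 and 10.07 in wild type.

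Promoters of some of these genes are shown first, with their matches to the element that the Irf9 complex and Irf2 bind. RefSeq windows on GRCm38.p6, from 250 bases before to 50 bases after the transcription start, matched 36 of the 48 genes. The core of the interferon-stimulated response element was searched as GAAA, any 2 bases and GAAA, on both strands (TTTC, any 2 bases and TTTC on the other strand), and it was found in 19 of 36 members (52.8%) and in 1079 of 27025 genes with a window (3.99%). It was present in 5 of 7 members with a window that rose in Irf2 KO, in 1 of 3 that fell there and in 13 of 26 that were not called there. The gamma-activated site, searched as TTC, any 3 bases and GAA, was found in 9 of 36 members (25%) and in 9.55% of genes with a window. Matches to these motifs may overlap. The windows printed are those of the 6 genes called in Irf2 KO that hold the response element, in the order of the size of their change, 5′ to 3′ on the strand of the gene, with each match in capitals and, for Bst2, 2 matches that overlap.
Ifit1: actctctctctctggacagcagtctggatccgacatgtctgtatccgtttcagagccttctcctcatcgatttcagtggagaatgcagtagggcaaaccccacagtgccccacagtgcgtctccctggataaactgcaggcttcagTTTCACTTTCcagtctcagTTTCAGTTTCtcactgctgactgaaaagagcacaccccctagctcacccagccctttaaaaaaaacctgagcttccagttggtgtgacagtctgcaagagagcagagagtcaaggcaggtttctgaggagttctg
Ifit1bl1: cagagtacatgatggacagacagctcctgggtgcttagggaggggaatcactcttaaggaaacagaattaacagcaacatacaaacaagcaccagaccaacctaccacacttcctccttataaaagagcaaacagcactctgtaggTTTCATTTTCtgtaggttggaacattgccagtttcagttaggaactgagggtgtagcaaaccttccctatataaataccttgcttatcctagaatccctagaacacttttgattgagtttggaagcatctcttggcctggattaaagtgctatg
Rsad2: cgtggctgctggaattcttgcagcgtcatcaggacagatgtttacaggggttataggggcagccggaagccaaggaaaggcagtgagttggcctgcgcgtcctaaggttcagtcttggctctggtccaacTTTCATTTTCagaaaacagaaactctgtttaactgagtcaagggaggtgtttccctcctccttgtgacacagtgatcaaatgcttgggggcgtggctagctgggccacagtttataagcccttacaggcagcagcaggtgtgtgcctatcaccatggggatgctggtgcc
Phf11b: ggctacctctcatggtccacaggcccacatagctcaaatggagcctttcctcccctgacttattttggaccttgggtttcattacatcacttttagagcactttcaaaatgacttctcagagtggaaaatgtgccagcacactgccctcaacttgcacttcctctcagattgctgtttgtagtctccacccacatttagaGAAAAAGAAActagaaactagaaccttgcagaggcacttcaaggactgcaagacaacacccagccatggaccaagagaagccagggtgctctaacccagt
Ddx58: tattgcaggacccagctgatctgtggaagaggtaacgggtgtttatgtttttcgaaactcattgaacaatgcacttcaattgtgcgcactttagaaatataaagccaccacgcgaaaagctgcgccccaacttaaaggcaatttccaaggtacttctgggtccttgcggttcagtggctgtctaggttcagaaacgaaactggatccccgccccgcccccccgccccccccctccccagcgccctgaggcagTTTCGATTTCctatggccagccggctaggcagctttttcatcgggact
Bst2: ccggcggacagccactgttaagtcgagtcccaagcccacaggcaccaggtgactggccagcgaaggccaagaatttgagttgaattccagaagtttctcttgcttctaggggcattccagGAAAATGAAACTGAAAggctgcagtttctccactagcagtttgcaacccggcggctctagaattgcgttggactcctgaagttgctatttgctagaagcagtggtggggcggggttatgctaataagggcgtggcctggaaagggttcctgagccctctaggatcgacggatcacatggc
The windows are chr19:34640639-34640938 (plus strand) for Ifit1, chr19:34601919-34602218 (minus strand) for Ifit1bl1, chr12:26456403-26456702 (minus strand) for Rsad2, chr14:59341281-59341580 (minus strand) for Phf11b, chr4:40239776-40240075 (minus strand) for Ddx58 and chr8:71537423-71537722 (minus strand) for Bst2. Counted from the transcription start as 0, the match nearest to it began at -85 in Ifit1, -104 in Ifit1bl1, -120 in Rsad2, -50 in Phf11b, 2 in Ddx58 and -124 in Bst2, so that 5 of the 6 lay before the start and that of Ddx58 just after it. A match of letters is a description and no evidence that a factor bound there. Of the other called genes, Cmpk2, Samd9l, Trim25 and Herc6 had windows without the core, and Zbp1 and Tor3a are named only.

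The members lay on 16 chromosomes, with 9 on chromosome 11, 7 on chromosome 5, 6 on chromosome 16 and 5, the Ifit members, on chromosome 19. Rsad2 (chr12:26442746-26456452, minus strand) and Cmpk2 (chr12:26469204-26479837, plus strand) are neighbours, transcribed away from each other with 12751 bases between them and no protein-coding gene in that gap (GENCODE M21 on GRCm38). Some members share sequence, so their counts may be split or mixed. Of the exonic stretches of 75 bases in Oas1a, 47.6% also occur in Oas1g, and 41.1% of those in Ifit3 also occur in Ifit3b. Ifit1 and Ifit1bl1 shared none. Parp9 and Dtx3l overlap over 458 exonic bases on opposite strands, and Adar and Ifi35 each overlap another gene on the opposite strand over 16.8% of their exonic bases. Whether counting used the strand is not stated, so reads of such partners cannot be told apart.

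Compared per kilobase of exon, the basal levels in wild type spanned a wide range. Ifi27l2a, a small interferon-induced protein gene, was at the top with 1426 ± 682 CPM per kb (SD, n = 2), followed by Bst2 (tetherin, which holds budding virions at the membrane) with 134 ± 57.9 CPM per kb. Ifi35 (79.3 ± 18.6), Sp100 (63.9 ± 9.37), Isg15 (57.8 ± 36.3), Oas1a (57.4 ± 29.9) and Usp18 (51.7 ± 27.0 CPM per kb) came next, and the order among these 5 lay within their spread. At the lower end were Herc6 (1.06 ± 0.0638), Ifi44 (0.171 ± 0.129) and Iigp1 (0.0692 ± 0.0371 CPM per kb). In Irf2 KO the levels per kilobase placed Bst2 at 424 ± 53.3 and Isg15 at 255 ± 84.3, below Ifi27l2a at 1087 ± 55.8 CPM per kb. Ifit1 stood at 76.7 ± 12.1 CPM per kb in Irf2 KO and 6.63 ± 4.99 in wild type, and Rsad2 at 35.8 ± 3.83 in Irf2 KO and 3.73 ± 2.52 in wild type.

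The level of the 48 genes differed between the 2 libraries of some genotypes. In Nr4a1 KO all 48 were higher in replicate 2 than in replicate 1, by a median of 1.85 on the log2 scale, and 38 of them (79.2%) by more than 1, against 5.97% of all genes tested. In wild type all 48 were again higher in replicate 2, by a median of 0.90, and 19 (39.6%) by more than 1, against 3.47% of all genes tested. Irf2 KO libraries differed less, with 42 of 48 higher in replicate 2 and a median gap of 0.47. In them 9 members (18.75%) lay apart by more than 1, against 3.36% of all genes tested. The libraries labelled Bcl6 cKO were the closest, with 37 of 48 higher in replicate 2 and a median gap of 0.21. No member there was apart by more than 1, against 1.54% of all genes tested. Nr4a1 KO replicate 1 stands apart in these genes, with the lowest of the 8 values for 41 of the 48 members, while it held the lowest value of 16.0% of all genes tested. The highest value fell in Irf2 KO replicate 2 for 22 of the 48 members, against 16.2% of all genes tested. It fell in wild type replicate 2 for 10 of the 48, against 16.6% of all genes tested.

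Set against the wild-type mean, the median member lay 0.26 and 0.83 above it in the Irf2 KO libraries, 0.14 and 0.41 above it in those labelled Bcl6 cKO, at -1.20 and 0.41 in Nr4a1 KO, and at -0.45 and 0.45 in wild type. The medians over all genes tested stayed between -0.04 and 0.01 in all 8 libraries. The standard error of a comparison was 0.52 for the median member and 0.19 for the median gene tested, so a member had to differ by more than most genes to be called. In bulk RNA, fewer cells that use a gene and less RNA of it per cell cannot be told apart.

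**Figure D1:**
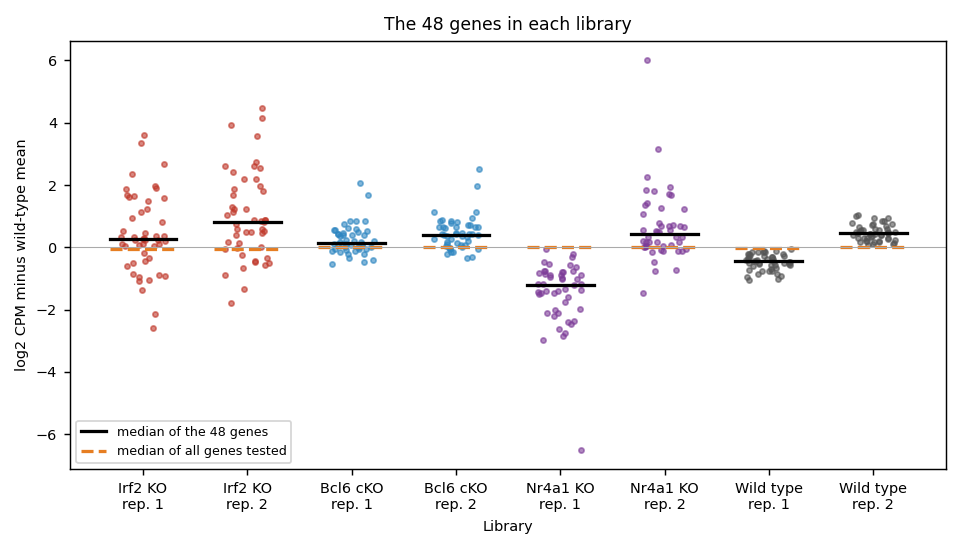
Each point is 1 of the 48 genes in 1 library, as log2 CPM minus the wild-type mean of that gene; the black line is the median of the 48 genes and the dashed line the median of all genes tested. Nr4a1 KO replicate 1 has a median of -1.20 and wild type replicates 1 and 2 lie at -0.45 and 0.45, while the dashed lines stay near 0.

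**Figure D2:**
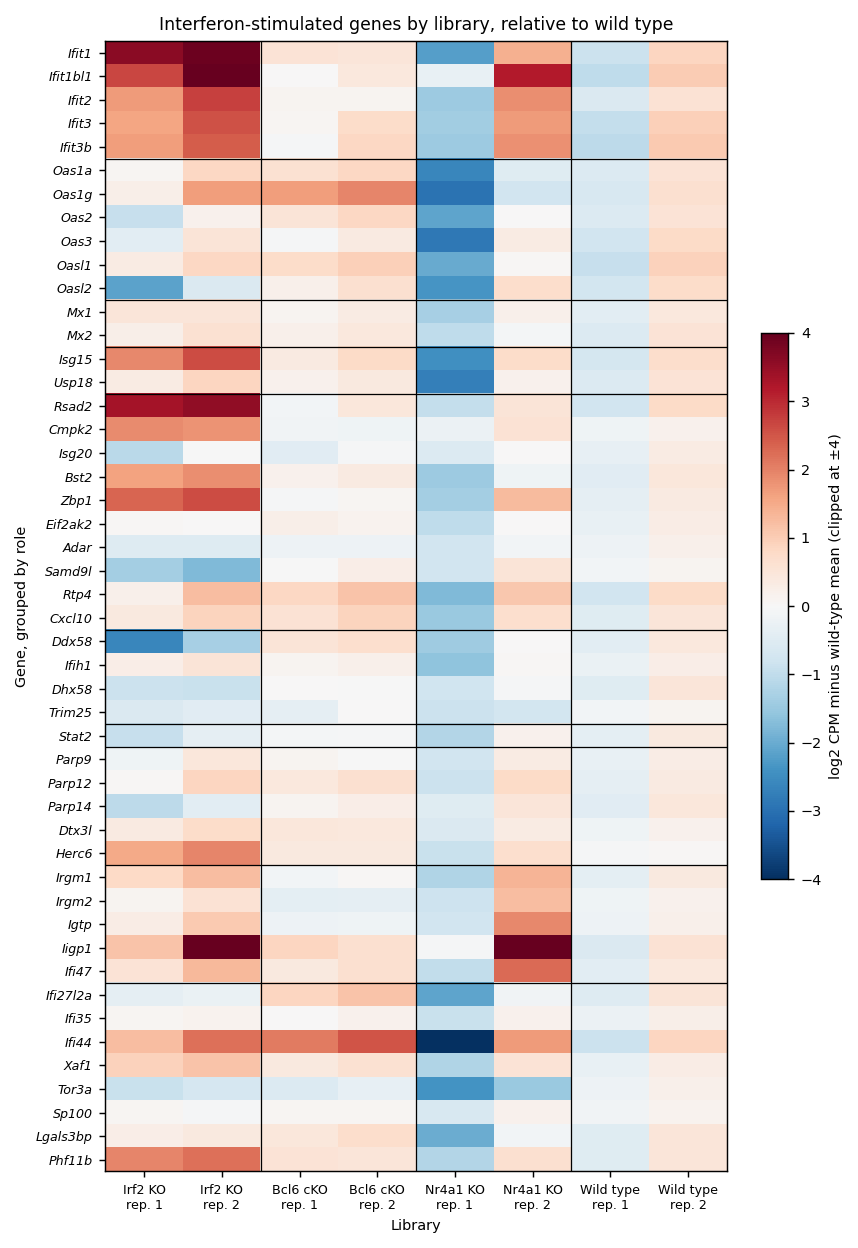
Colour shows log2 CPM minus the wild-type mean for each gene (down the page, grouped by role) in each library (across), clipped at 4 in either direction. Red blocks in both Irf2 KO libraries mark Ifit1, Rsad2, Cmpk2, Bst2, Zbp1, Herc6 and Phf11b, and the column of Nr4a1 KO replicate 1 is blue for all 48 genes.

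In Irf2 KO monocytes part of the antiviral genes rose, a few fell and most were not called. By limma, with Benjamini-Hochberg adjustment over the 12752 genes tested and a threshold of 0.05, 11 of 48 members (22.9%) differed from wild type, against 21.6% of all genes tested. Of these, 8 rose (16.7% of members, against 9.26% of all genes) and 3 fell (6.25%, against 12.3%). Over all genes 42.9% of the calls were higher as deposited, 59.3% after median centring of the libraries and 53.7% after quantile normalization. Under both, 8 members rose (16.7%) and 2 fell (4.17%). Of all genes, 13.1% rose and 8.96% fell after centring, and 11.0% rose and 9.51% fell after quantile normalization. Centring raised every log2 change by 0.10 in this comparison. The members' median change was 0.52, beside -0.04 over all genes. Of the 48 changes 36 lay above 0, but 10 members took the other sign without wild type replicate 1. Both Irf2 KO libraries lay above both wild-type libraries for 20 members (41.7%, against 30.1% of all genes) and below both for 6 (12.5%, against 35.8%). The 8 that rose were Ifit1, Ifit1bl1, Rsad2, Zbp1, Phf11b, Cmpk2, Bst2 and Herc6, and the 3 that fell were Ddx58, Samd9l and Trim25.

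The neighbouring genes Rsad2 and Cmpk2 rose. Rsad2 encodes viperin, a radical SAM enzyme that makes a chain-terminating nucleotide, and Cmpk2 encodes a mitochondrial kinase of pyrimidine nucleotides. Rsad2 stood at 7.17 and 7.38 log2 CPM in Irf2 KO, 3.71 and 4.27 in the libraries labelled Bcl6 cKO, 2.86 and 4.33 in Nr4a1 KO, and 3.07 and 4.58 in wild type. Cmpk2 stood at 6.56 and 6.49 in Irf2 KO, 4.52 and 4.52 in the libraries labelled Bcl6 cKO, 4.45 and 5.24 in Nr4a1 KO, and 4.51 and 4.84 in wild type. For both genes the Irf2 KO libraries were the 2 highest of the 8, and the other 6 overlapped one another. Rsad2 was 10.9-fold higher than in wild type (log2 change 3.45 ± 0.54 SE, limma adjusted p = 0.00459) and Cmpk2 3.60-fold higher (1.85 ± 0.23, limma adjusted p = 0.00236). These 2 calls held whichever of the 8 libraries was left out, with limma adjusted p up to 0.0308 for Rsad2 and 0.0166 for Cmpk2.

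The Ifit genes encode proteins with tetratricopeptide repeats that bind viral RNA or block its translation, Ifit1 by recognising caps that lack host methylation. Ifit1 stood at 7.50 and 7.82 log2 CPM in Irf2 KO, 4.45 and 4.37 in the libraries labelled Bcl6 cKO, 1.68 and 5.31 in Nr4a1 KO, and 3.04 and 4.75 in wild type. Ifit1bl1, an Ifit1-like gene, stood at 4.34 and 6.15 in Irf2 KO, 1.70 and 2.11 in the libraries labelled Bcl6 cKO, 1.38 and 4.83 in Nr4a1 KO, and 0.66 and 2.70 in wild type. Both Irf2 KO libraries lay above wild type for each gene, but Nr4a1 KO replicate 2 lay above Irf2 KO replicate 1 for Ifit1bl1. Ifit1 rose by 3.76 ± 0.98 (13.6-fold, limma adjusted p = 0.0278) and Ifit1bl1 by 3.57 ± 1.08 (11.9-fold, limma adjusted p = 0.0463). The changes of Ifit2, Ifit3 and Ifit3b were 2.21, 2.07 and 2.04, with both Irf2 KO libraries above wild type and limma adjusted p of 0.108, 0.144 and 0.170.

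Among the other effectors and related genes, Zbp1, Bst2, Herc6 and Phf11b rose. Zbp1, a sensor of Z-form nucleic acid that can start necroptosis, stood at 9.11 and 9.39 log2 CPM in Irf2 KO, 6.73 and 6.86 in the libraries labelled Bcl6 cKO, 5.40 and 8.03 in Nr4a1 KO, and 6.40 and 7.14 in wild type. Bst2 stood at 8.45 and 8.71 in Irf2 KO, 7.01 and 7.21 in the libraries labelled Bcl6 cKO, 5.39 and 6.68 in Nr4a1 KO, and 6.39 and 7.30 in wild type. The Irf2 KO libraries were the highest 2 of 8 for both genes, with changes of 2.48 ± 0.66 for Zbp1 (5.58-fold, limma adjusted p = 0.0314) and 1.73 ± 0.40 for Bst2 (3.32-fold, limma adjusted p = 0.0180). Herc6, the ligase that attaches Isg15 in the mouse, stood at 4.80 and 5.26 in Irf2 KO, 3.71 and 3.68 in the libraries labelled Bcl6 cKO, 2.42 and 3.98 in Nr4a1 KO, and 3.24 and 3.36 in wild type. Phf11b, a PHD finger gene, stood at 7.71 and 7.95 in Irf2 KO, 6.30 and 6.22 in the libraries labelled Bcl6 cKO, 4.56 and 6.39 in Nr4a1 KO, and 5.25 and 6.24 in wild type. Again both Irf2 KO values were above all others, with changes of 1.73 ± 0.42 for Herc6 (3.31-fold, limma adjusted p = 0.0213) and 2.08 ± 0.51 for Phf11b (4.23-fold, limma adjusted p = 0.0232). Herc6 overlaps another annotated gene on the same strand over 13.7% of its exonic bases, so part of its reads may belong to that gene.

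The genes that fell in Irf2 KO were a sensor, its cofactor and a restriction factor. Ddx58 encodes RIG-I, the sensor of viral RNA ends, and stood at 2.19 and 3.44 log2 CPM in Irf2 KO, 5.30 and 5.45 in the libraries labelled Bcl6 cKO, 3.38 and 4.80 in Nr4a1 KO, and 4.38 and 5.20 in wild type. Samd9l, which restricts poxviruses and cell growth, stood at 4.18 and 3.77 in Irf2 KO, 5.55 and 5.81 in the libraries labelled Bcl6 cKO, 4.77 and 6.06 in Nr4a1 KO, and 5.43 and 5.66 in wild type. Both Irf2 KO libraries were the lowest 2 of 8 for Samd9l, whereas Nr4a1 KO replicate 1 lay below the higher Irf2 KO value for Ddx58. Trim25, a ubiquitin ligase that acts with RIG-I, stood at 5.51 and 5.64 in Irf2 KO, 5.75 and 6.11 in the libraries labelled Bcl6 cKO, 5.25 and 5.36 in Nr4a1 KO, and 5.98 and 6.22 in wild type. The falls were -1.97 ± 0.51 for Ddx58 (3.92-fold, limma adjusted p = 0.0286), -1.57 ± 0.35 for Samd9l (2.97-fold, limma adjusted p = 0.0168) and -0.53 ± 0.15 for Trim25 (1.44-fold, limma adjusted p = 0.0382). The Trim25 call ended when libraries were centred on their medians or quantile normalized. Dhx58, a RIG-I-like receptor that regulates the other sensors, was at -0.87 ± 0.30 with both Irf2 KO libraries below the other 6 (limma adjusted p = 0.0715), and Ifih1, the long RNA sensor, at 0.38 ± 0.44 (limma adjusted p = 0.569).

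**Figure D3:**
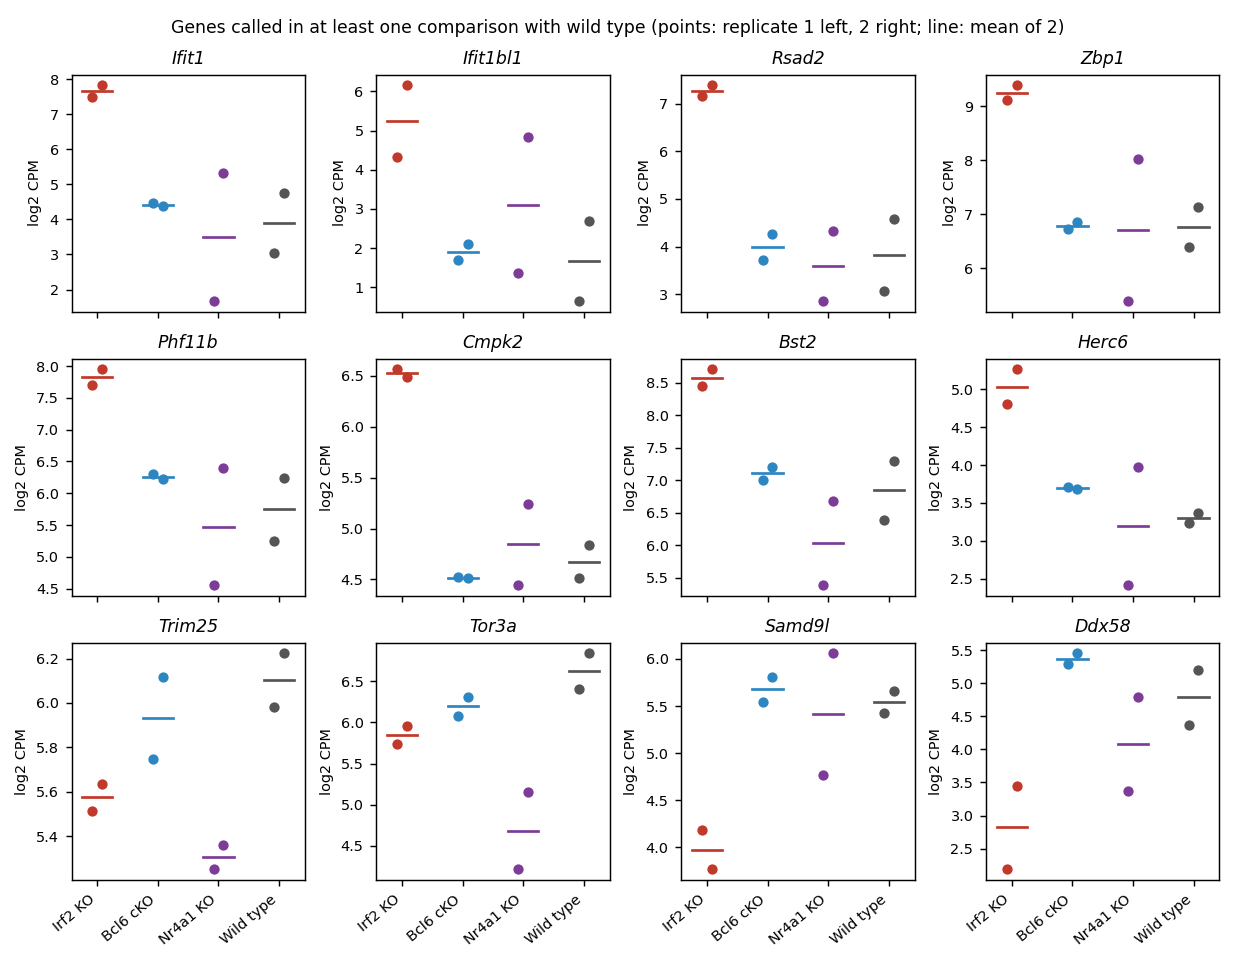
Each panel gives 1 gene called against wild type in at least 1 comparison, with the log2 CPM of replicate 1 (left point) and replicate 2 (right point) and their mean (line) in each genotype; the vertical axes differ and do not start at 0. Rsad2 at 7.17 and 7.38 and Cmpk2 at 6.56 and 6.49 in Irf2 KO stand clear of the other 6 libraries, and Tor3a is lowest in Nr4a1 KO.

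Families without a call in Irf2 KO were next. The 6 oligoadenylate synthetase genes, whose products activate RNase L, had changes from -1.36 (Oasl2) to 0.96 (Oas1g), a median of 0.25 and no call. Oas1a stood at 6.74 and 7.49 log2 CPM in Irf2 KO, 7.26 and 7.49 in the libraries labelled Bcl6 cKO, 4.03 and 6.18 in Nr4a1 KO, and 6.10 and 7.21 in wild type. Oasl2 stood at 4.67 and 6.26 in Irf2 KO, 7.03 and 7.47 in the libraries labelled Bcl6 cKO, 4.48 and 7.52 in Nr4a1 KO, and 6.10 and 7.56 in wild type. For both genes Irf2 KO overlapped wild type. Mx1 and Mx2, genes of dynamin-like GTPases, were at 0.49 ± 0.44 and 0.42 ± 0.39, and Mx2 is annotated as a polymorphic pseudogene. The 5 immunity-related GTPase genes (Irgm1, Irgm2, Igtp, Iigp1 and Ifi47) had a median change of 0.92 with no call.

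Isg15 was not called in Irf2 KO. It stood at 7.20 and 7.89 log2 CPM there, 5.65 and 6.07 in the libraries labelled Bcl6 cKO, 2.84 and 6.02 in Nr4a1 KO, and 4.60 and 5.98 in wild type. Its Irf2 KO libraries were the 2 highest of 8, with a change of 2.26 ± 0.86 (limma adjusted p = 0.0942). Isg15 was called higher by limma voom, with the replicate number as a block, with only the 2 groups compared and by the authors' adjusted p-values. After median centring or quantile normalization it was not called. Usp18, the protease that removes Isg15, stood at 7.39 and 7.94 in Irf2 KO, 7.25 and 7.46 in the libraries labelled Bcl6 cKO, 4.33 and 7.23 in Nr4a1 KO, and 6.51 and 7.63 in wild type. It overlapped wild type, with a change of 0.60 ± 0.76 (limma adjusted p = 0.611).

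Other abundant members without a call in any comparison with wild type included genes of nuclear bodies, cell death and virus restriction. Sp100, a scaffold of nuclear bodies, stood at 9.0 and 8.85 log2 CPM in Irf2 KO, 9.0 and 8.97 in the libraries labelled Bcl6 cKO, 8.28 and 9.09 in Nr4a1 KO, and 8.76 and 9.06 in wild type. Xaf1, a pro-apoptotic partner of XIAP, stood at 7.48 and 7.69 in Irf2 KO, 6.94 and 7.15 in the libraries labelled Bcl6 cKO, 5.34 and 7.10 in Nr4a1 KO, and 6.24 and 6.84 in wild type. Xaf1 was highest in the Irf2 KO libraries, with a change of 1.04 ± 0.46 (limma adjusted p = 0.140), while Sp100 overlapped wild type, with 0.02 ± 0.22 (limma adjusted p = 0.962). Irgm1, which regulates the other immunity-related GTPases, stood at 7.58 and 8.01 in Irf2 KO, 6.67 and 6.84 in the libraries labelled Bcl6 cKO, 5.59 and 8.12 in Nr4a1 KO, and 6.39 and 7.17 in wild type. Ifi47, of the same GTPase family, stood at 7.17 and 7.95 in Irf2 KO, 7.03 and 7.28 in the libraries labelled Bcl6 cKO, 5.64 and 8.90 in Nr4a1 KO, and 6.22 and 7.06 in wild type. Both Irf2 KO libraries lay above wild type for these GTPase genes, and Nr4a1 KO held their lowest and their highest value.

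Rtp4, which limits flavivirus replication, stood at 6.32 and 7.34 log2 CPM in Irf2 KO, 6.94 and 7.24 in the libraries labelled Bcl6 cKO, 4.35 and 7.19 in Nr4a1 KO, and 5.34 and 6.87 in wild type. Dtx3l, a ubiquitin ligase that works with Parp9, stood at 6.55 and 6.92 in Irf2 KO, 6.62 and 6.61 in the libraries labelled Bcl6 cKO, 5.60 and 6.52 in Nr4a1 KO, and 6.01 and 6.34 in wild type. Dtx3l lay above wild type in both Irf2 KO libraries, with a change of 0.56 ± 0.27 (limma adjusted p = 0.165), and Rtp4 overlapped. Lgals3bp, a secreted glycoprotein that binds galectins, stood at 7.15 and 7.26 in Irf2 KO, 7.31 and 7.58 in the libraries labelled Bcl6 cKO, 4.89 and 6.76 in Nr4a1 KO, and 6.37 and 7.37 in wild type. Ifi35 stood at 7.17 and 7.22 in Irf2 KO, 7.09 and 7.24 in the libraries labelled Bcl6 cKO, 6.19 and 7.26 in Nr4a1 KO, and 6.83 and 7.32 in wild type. The Irf2 KO libraries lay between the wild-type ones for both genes.

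Except for Rsad2 and Cmpk2, the calls in Irf2 KO depended on single libraries. Leaving out 1 of the 4 Irf2 KO and wild-type libraries left 3 or 4 members called, against 11 with all 8 libraries, while the share of all genes called was 8.44% to 11.9%, against 21.6%. Without 1 of the libraries labelled Bcl6 cKO, whichever it was, 7 were called (14.6%, against 16.4% of all genes). Without 1 of the Nr4a1 KO libraries 22 were called (45.8%, against 24.8% or 25% of all genes), 16 higher and 6 lower. In the last case the wide gap between the Nr4a1 KO libraries no longer entered the shared estimate of the spread, and all 11 genes were among the 22. The calls of Ifit1, Ifit1bl1 and Zbp1 ended without any 1 library of Irf2 KO, wild type or the label Bcl6 cKO. Herc6 and Trim25 were no longer called without any 1 Irf2 KO or wild-type library, and the calls of Bst2 and Phf11b ended without wild type replicate 1 or either Irf2 KO library. Samd9l lost its call without either wild type library or Irf2 KO replicate 2, and Ddx58 without wild type replicate 2, Irf2 KO replicate 1 or either library labelled Bcl6 cKO. Over the 11 genes the highest limma adjusted p was 0.228, for Ifit1bl1, and every change kept its sign in all 8 fits.

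**Figure D4:**
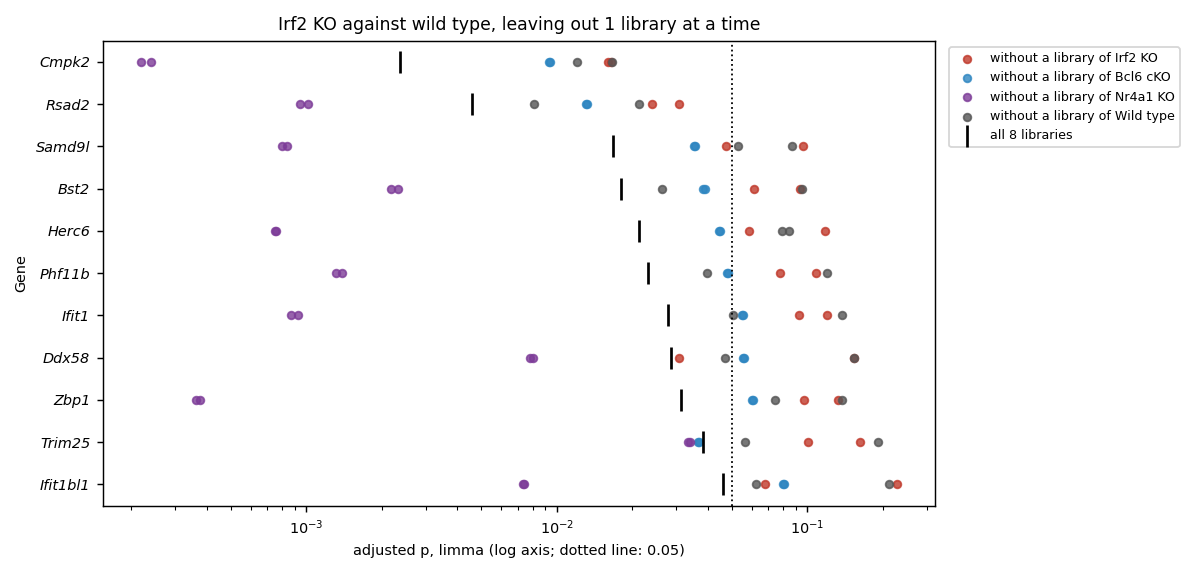
Adjusted p (limma, log axis) of the 11 genes called in Irf2 KO against wild type, with all 8 libraries (bar) and with each 1 left out (points, coloured by the genotype of that library); the dotted line is the threshold of 0.05. Only Cmpk2, up to 0.0166, and Rsad2, up to 0.0308, stay left of the line in all 8 fits.

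In the libraries labelled Bcl6 cKO none of the 48 members was called against wild type by limma, against 5.01% of all genes tested (1.36% higher and 3.65% lower). At an unadjusted p under 0.05 the test passed 1 member, Oas1g, but the share of all genes passing that limit is not given here. Limma voom on the recovered reads (5.80% of all genes called) and the authors' deposited table called 0 members as well. Other fits called 1 or 2 members higher. With the replicate number as a block Oas1g was called (4.91% of all genes called). With only the 2 groups compared Oas1g and Ifi44 were called (6.81%), and with Nr4a1 KO left out Ifi44 was called (7.14%). The median member change was 0.27, beside -0.01 over all genes, and 38 of 48 lay above 0, but 21 members took the other sign without wild type replicate 1. Of the calls over all genes 27.1% were higher, and 40.7% after median centring and 39.3% after quantile normalization. No member was called under either, against 4.93% and 4.97% of all genes. Both libraries lay above wild type for 12 members (25%, against 26.8% of all genes) and below for 3 (6.25%, against 28.4%). Oas1g, a paralog of Oas1a, stood at 5.22 and 5.49 log2 CPM there, 3.76 and 5.22 in Irf2 KO, 0.57 and 2.76 in Nr4a1 KO, and 2.88 and 4.18 in wild type. Its change was 1.83 ± 0.72 (95% interval 0.18 to 3.47, limma adjusted p = 0.189), and reads shared with Oas1a make it uncertain. Ifi27l2a stood at 10.14 and 10.41 in the libraries labelled Bcl6 cKO, 8.92 and 9.03 in Irf2 KO, 7.17 and 9.15 in Nr4a1 KO, and 8.77 and 9.79 in wild type. These were the 2 highest of its 8 values, with a change of 0.99 ± 0.54 (limma adjusted p = 0.337). For 47 of 48 members the 95% interval of the change included 0, and for Rsad2 it ran from -1.06 to 1.39, so changes of about that size could not be seen here.

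In Nr4a1 KO 2 of 48 members (4.17%) were called, both lower, against 15.1% of all genes called in either direction, 3.94% higher and 11.2% lower. The median member change was -0.38, beside 0.01 over all genes, and 37 of 48 lay below 0, but 27 members took the other sign without Nr4a1 KO replicate 1. Of the calls over all genes 26.1% were higher, and 50.7% after median centring, which raised each log2 change by 0.13, and 47.1% after quantile normalization. Tor3a and Trim25 were called lower under both (4.17%), against 8.98% and 9.45% of all genes called lower. Both Nr4a1 KO libraries lay below wild type for Oas1g, Tor3a and Trim25 (6.25%, against 28.9% of all genes) and above it for none (against 27.9%). Tor3a, a torsin ATPase of the endoplasmic reticulum, stood at 4.22 and 5.15 log2 CPM in Nr4a1 KO, 5.74 and 5.95 in Irf2 KO, 6.08 and 6.31 in the libraries labelled Bcl6 cKO, and 6.41 and 6.84 in wild type. Its 2 Nr4a1 KO values were the lowest of 8 and its wild-type values the highest, with a change of -1.94 ± 0.27 (3.83-fold lower, limma adjusted p = 0.00190). Trim25, at 5.25 and 5.36 in Nr4a1 KO against 5.98 and 6.22 in wild type, was also lowest there, with a change of -0.80 ± 0.15 (1.74-fold lower, limma adjusted p = 0.00823).

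The distance between the Nr4a1 KO libraries decided most other values. Without Nr4a1 KO replicate 1, which stands apart, 8 members were called higher than wild type (16.7%, against 3.65% of all genes) and 2 lower (4.17%, against 10.3%). Without replicate 2, 29 were called lower (60.4%, against 9.90% of all genes) and none higher (against 2.14%). Tor3a was called in both cases, at -1.47 (limma adjusted p = 0.00164) without replicate 1 and -2.40 (limma adjusted p = 8.6e-05) without replicate 2, and it was called whichever library was left out. Trim25 was called at -0.74 (limma adjusted p = 0.0294) without replicate 1 and at -0.85 (limma adjusted p = 0.0179) without replicate 2, but not without wild type replicate 2 (limma adjusted p = 0.0637). With only 1 library a group, the fit takes its spread from the other groups. Ifit1 and the immunity-related GTPase gene Igtp were among the genes with this gap. Ifit1 stood at 1.68 and 5.31 log2 CPM in Nr4a1 KO, against 3.04 and 4.75 in wild type. Igtp stood at 4.47 and 7.16 log2 CPM in Nr4a1 KO, against 5.02 and 5.44 in wild type. For both genes 1 library lay below and the other above both wild-type values. Iigp1, with few reads, had 18 and 1147 reads in Nr4a1 KO, against 14 and 28 in wild type. Its mean reached 0 log2 CPM only with Nr4a1 KO replicate 2 counted, so Iigp1 adds no separate support for the gap. Ifi44 had 0 and 137 reads in Nr4a1 KO, against 28 and 82 in wild type, and 0 reads allow up to 3, or 0.0588 CPM. Counting error alone is covered by that limit.

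**Figure D5:**
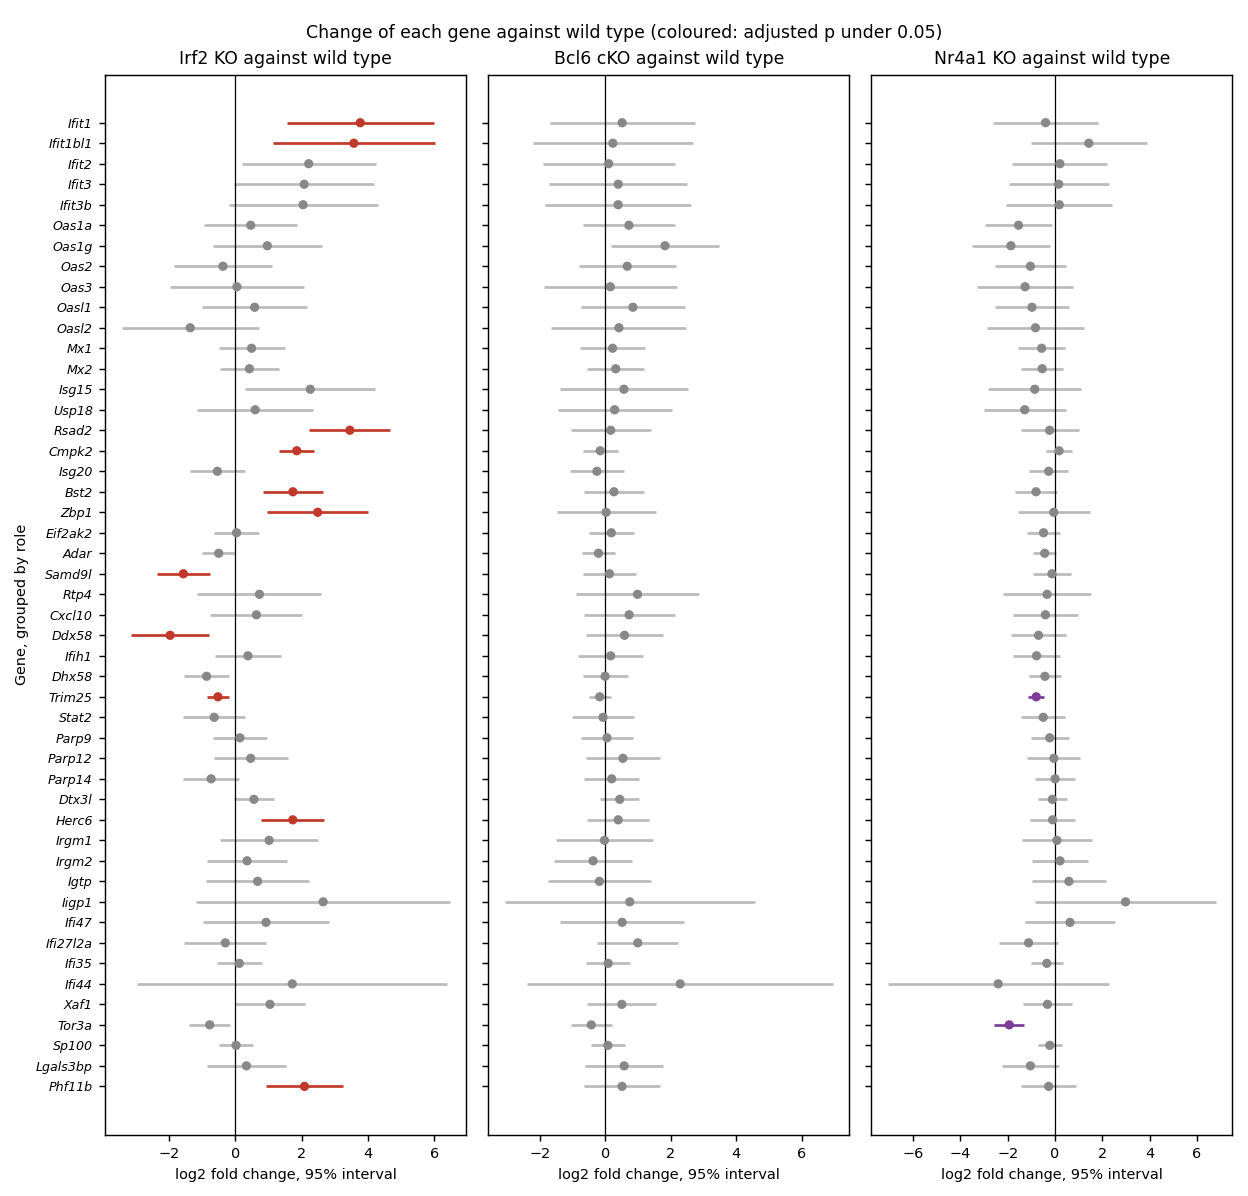
Change of each of the 48 genes (down the page, grouped by role) against wild type in Irf2 KO, Bcl6 cKO and Nr4a1 KO, as log2 fold change with its 95% interval from limma; coloured points have an adjusted p under 0.05, 11 in Irf2 KO, 0 in Bcl6 cKO and 2 in Nr4a1 KO. The horizontal scales of the 3 panels differ.

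Because the 3 comparisons with wild type share its 2 libraries, the knockouts were also set against each other. Irf2 KO differed from the libraries labelled Bcl6 cKO in 4 of 48 members (8.33%, against 9.55% of all genes tested, 3.87% higher and 5.68% lower). Rsad2 (3.29 ± 0.54, limma adjusted p = 0.00984) and Cmpk2 (2.01 ± 0.23, limma adjusted p = 0.00294) were higher in Irf2 KO, and Ddx58 (-2.56 ± 0.51, limma adjusted p = 0.0207) and Samd9l (-1.70 ± 0.35, limma adjusted p = 0.0227) were lower. The call of Cmpk2 held whichever library was left out. Rsad2 lost its call without Irf2 KO replicate 2 or either library labelled Bcl6 cKO, Samd9l without any 1 library of the 2 genotypes, and Ddx58 without Irf2 KO replicate 1 or either library labelled Bcl6 cKO.

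Irf2 KO differed from Nr4a1 KO in 12 of 48 members (25%, against 22.3% of all genes tested), with 11 higher (22.9%, against 12.4%) and Samd9l lower (-1.44 ± 0.35, limma adjusted p = 0.0211), against 9.94% of all genes lower. The 11 were Ifit1, Rsad2, Isg15, Oas1g, Bst2, Zbp1, Phf11b, Oas1a, Herc6, Cmpk2 and Tor3a, with differences of 1.16 (Tor3a) to 4.16 (Ifit1). Rsad2 (3.68 ± 0.54, limma adjusted p = 0.00203), Bst2 (2.54 ± 0.40, limma adjusted p = 0.00287) and Cmpk2 (1.68 ± 0.23, limma adjusted p = 0.00161) held whichever library was left out. The count was 14 without Nr4a1 KO replicate 1 (29.2%, against 15.9% of all genes; 8 higher and 6 lower) and 38 without replicate 2 (79.2%, against 21% of all genes). The libraries labelled Bcl6 cKO lay above Nr4a1 KO in 3 members (6.25%, against 5.75% of all genes tested, 4.97% higher and 0.776% lower), Oas1g (3.69 ± 0.72, limma adjusted p = 0.0190), Tor3a (1.51 ± 0.27, limma adjusted p = 0.0136) and Trim25 (0.63 ± 0.15, limma adjusted p = 0.0467). None of those 3 held in every fit with 1 library left out. Oas1g and Tor3a lost their calls without either library labelled Bcl6 cKO. Trim25 kept its call in only 1 of the 8 fits with 1 library left out, and in 3 of all 17 alternatives.

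None of the tested genes upstream of the response passed the test as higher in a knockout than in wild type. No interferon gene of the list of 7 was analysed here. Of 11 tested receptor and signalling genes 3 fell in each knockout (27.3%, against 12.3% of all genes in Irf2 KO, 3.65% in the libraries labelled Bcl6 cKO and 11.2% in Nr4a1 KO), namely the receptor subunits Ifnar1 and Ifngr1 and the kinase Tyk2. Ifnar1 changed by -1.01 ± 0.14 in Irf2 KO, -0.65 ± 0.14 in the libraries labelled Bcl6 cKO and -1.07 ± 0.14 in Nr4a1 KO (limma adjusted p = 0.00283, 0.0318 and 0.00103). All 3 comparisons use the same wild-type libraries. The transducer Stat2, a member, was at -0.64 ± 0.41 in Irf2 KO (limma adjusted p = 0.297). Of 7 interferon regulatory factor genes, Irf2, Irf4 and Irf5 fell in Irf2 KO, Irf5 in the libraries labelled Bcl6 cKO, and Irf3 and Irf5 in Nr4a1 KO, or 42.9%, 14.3% and 28.6% of the list beside the same shares of all genes. The response factors Irf7, Irf9 and Irf1 were at -0.66 ± 0.60, -0.30 ± 0.25 and -0.39 ± 0.57 in Irf2 KO (limma adjusted p = 0.456, 0.417 and 0.663). Of 10 nucleic acid sensing genes 5 fell in Irf2 KO (50%), none in the libraries labelled Bcl6 cKO and 1 in Nr4a1 KO (10%), again beside 12.3%, 3.65% and 11.2% of all genes. The 5 were the RIG-I adaptor gene Mavs (-0.55 ± 0.12), the endosomal receptor genes Tlr7 (-1.31 ± 0.32) and Tlr8 (-0.64 ± 0.16), the adaptor gene Ticam1 (-1.04 ± 0.27) and the chaperone gene Unc93b1 (-0.58 ± 0.15), the last of which was the 1 in Nr4a1 KO (-0.60 ± 0.15).

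Other cell types' markers were lower in Irf2 KO for several lists, in a comparison where 12.3% of all genes fell and 9.26% rose. Plasmacytoid dendritic cells produce much interferon and carry Bst2, and of 5 tested markers Ccr9, Ly6d and Bcl11a fell while Bst2, itself a member, rose. The other 4 of these genes, Ccr9, Ly6d, Tcf4 and Bcl11a, summed to 54.1 and 61.9 CPM in Irf2 KO, against 77.1 and 87.5 CPM in wild type, and Siglech was not analysed here. Neutrophil markers fell for 6 of 10 genes, with sums of 340 and 862 CPM in Irf2 KO, against 1502 and 1797 CPM in wild type. Markers fell for 3 of 4 B cell genes, 4 of 4 erythroid genes, 2 of 4 conventional dendritic cell genes and 1 of 4 macrophage genes, while of 5 early myeloid genes 4 rose and 1 fell. The T and NK cell list held 1 tested gene, Nkg7, which rose in each of the 3 knockouts. Of the 8 classical monocyte markers Csf1r, Itgam, Cd14 and F13a1 fell, by 0.53 (F13a1) to 1.02 (Cd14) on the log2 scale, and Ly6c2, Ccr2 and Fcgr1 were not called. None of the 8 fell in the other 2 knockouts. There 1 rose in the libraries labelled Bcl6 cKO and 2 in Nr4a1 KO, against 1.36% and 3.94% of all genes. In the libraries labelled Bcl6 cKO the plasmacytoid markers summed to 89.7 and 90.7 CPM and the neutrophil markers to 798 and 941 CPM. There 2 of 10 neutrophil genes, 1 of 4 B cell genes and 1 of 4 erythroid genes fell, against 3.65% of all genes. In Nr4a1 KO the plasmacytoid markers summed to 68.2 and 89.8 CPM and the neutrophil markers to 1826 and 1886 CPM. No neutrophil gene, 1 of 4 B cell genes and 1 of 4 erythroid genes fell in Nr4a1 KO, against 11.2% of all genes. The part of these cell types in the changes of the antiviral genes was not tested.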

How the data were processed

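RNA of Ly6C-high bone marrow monocytes was measured in 8 libraries of 4 genotypes, grouped by the genotype in the labels, with 2 libraries each. Per the labels' protocols, cDNA was made from 10 ng of total RNA with the SMARTer Ultra Low kit, amplified and sequenced as paired reads. Per the submitters' processing notes, bcl2fastq, STAR 2.7.9a, Subread featureCounts 2.0.3, Salmon 1.5.2 and limma were used with build mm10, in an order that those notes leave out. The authors deposited log2 CPM values per library and, for each knockout against wild type, log2 fold changes with p-values and adjusted p-values. The values could be turned back into reads (reads plus 0.5 over a scaled total), and 100% came within 0.01 of a whole read, so that 1 CPM stood for 47.9 to 61.8 reads. Of its 13789 rows 45 repeated a gene and were dropped, which left 13744 genes.

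Genes whose mean log2 value was at least that of 1 CPM, 12752 in all, entered a limma 3.58.1 fit (R 4.3.3) with 4 group means, all 8 libraries and a trend of the prior variance (4 residual and 4.66 prior degrees of freedom). The 6 comparisons were tested with moderated tests and Benjamini-Hochberg adjustment over all genes tested, at 0.05, two-sided. Values are given ± SE for changes and ± SD for levels, and fold changes are on the scale of log2 CPM. The fit takes the spread as alike in the 4 groups, and where 1 library of a group was left out, the lone library was assumed to vary like the other groups. The procedure was tested on simulated data.

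The 48 genes and the lists of pathway and cell type genes were chosen with earlier results of these data known. A few genes of those lists are not reported here. Values of each library are given for the genes called against wild type and for the 12 most abundant of the others; other genes named were chosen after their values were seen. Alternatives were the replicate number as a block, a fit of only the 2 groups compared, leaving out each library, median centring, quantile normalization, library weights, a filter of 4 CPM or none, a prior variance with no trend, limma voom on the recovered reads and the authors' adjusted p-values. A fit of 3 groups without Nr4a1 KO was chosen after seeing the data. Limma voom called 2731, 739 and 1875 genes in Irf2 KO, Bcl6 cKO and Nr4a1 KO against wild type. Gene positions came from GENCODE M21 on GRCm38 and promoter windows from RefSeq on GRCm38.p6. Plots used matplotlib 3.10.9 (Python 3.11.15).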

Additional observations from a re-analysis of the deposited data

How the results depend on the processing

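Counts of members called depended on how the spread was estimated. No called change of a member took the other sign under any alternative run, whereas uncalled ones did, among them Sp100 in Irf2 KO against wild type without wild type replicate 1 (10 members in that fit). Without the trend of the prior variance, counts were 3 in Irf2 KO against wild type (11 as reported), 2 in Irf2 KO against Bcl6 cKO (4), 5 in Irf2 KO against Nr4a1 KO (12) and 0 in Bcl6 cKO against Nr4a1 KO (3), while the shares of all genes called were 15.4% (21.6% as reported), 4.21% (9.55%), 17.4% (22.3%) and 3.97% (5.75%). Library weights gave 10 and limma voom 8 in Irf2 KO against Bcl6 cKO (14.2% and 9.90% of all genes). With only the 2 groups compared, counts were 2 in Bcl6 cKO against wild type (0 as reported), 23 in Irf2 KO against Bcl6 cKO and 4 in Irf2 KO against Nr4a1 KO (6.81%, 15.3% and 13.9% of all genes). The fit of 3 groups, Nr4a1 KO left out, chosen after seeing the data, called 22 members in Irf2 KO against wild type, 1 in Bcl6 cKO against wild type and 16 in Irf2 KO against Bcl6 cKO (24.9%, 7.14% and 12.8% of all genes). The cause of these shifts was not tested, except that a fit without Nr4a1 KO or with fewer groups leaves out the spread of the libraries dropped.

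Leaving out each library in turn gave 3 to 22 members in Irf2 KO against wild type, 0 to 1 in Bcl6 cKO against wild type (Ifi44, without Nr4a1 KO replicate 1), 1 to 29 in Nr4a1 KO against wild type, 1 to 16 in Irf2 KO against Bcl6 cKO, 3 to 38 in Irf2 KO against Nr4a1 KO and 0 to 30 in Bcl6 cKO against Nr4a1 KO. The shares of all genes called ran, in the same order of comparisons, over 8.44% to 25%, 0.259% to 7.19%, 8.35% to 13.9%, 1.08% to 12.9%, 11.4% to 21.2% and 1.96% to 6.74%. Rsad2 and Cmpk2 in Irf2 KO and Tor3a in Nr4a1 KO, against wild type, were called under every alternative run. The authors' deposited table called 12, 0 and 2 members against wild type, with Isg15 and Tor3a added and Ifit1bl1 missing in Irf2 KO. The share of all genes called in that table is not given here, so these counts have no background beside them.

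With the replicate number as a block, counts were 18 in Irf2 KO, 1 in Bcl6 cKO and 4 in Nr4a1 KO against wild type, and 10, 25 and 9 in Irf2 KO against Bcl6 cKO, Irf2 KO against Nr4a1 KO and Bcl6 cKO against Nr4a1 KO, with 21.3%, 4.91%, 14.6%, 9.30%, 22.5% and 6.24% of all genes called. The labels do not say that a number marks a shared mouse, litter or day. Across all genes, the deviations of same-numbered libraries correlated at -0.003 to 0.183 over the 6 pairs of genotypes. Over the 48 genes the correlations were higher, at 0.15 to 0.60. Whether same-numbered libraries share a factor that acts on these genes was not tested. Each genotype has 2 libraries, and the effect of read depth on the calls was not tested.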
